A study of Mus musculus with 4 samples.

Results

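Neutrophils are short-lived granulocytes that reach injured muscle early and are later cleared. Their cytosol is rich in calprotectin, the dimer of S100A8 and S100A9, and their specific granules are filled during maturation in the bone marrow with lipocalin 2 (Lcn2), lactoferrin (Ltf), cathelicidin (Camp) and neutrophilic granule protein (Ngp). Mature cells also express the resistin-like protein Retnlg, the lipolysis inhibitor G0s2, the histamine-forming enzyme Hdc and Csf3r, the receptor for granulocyte colony-stimulating factor. The 10 genes described here were these neutrophil granule and identity genes, chosen by name from the 27998 genes of the deposited tables, and all 10 were matched by symbol.

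The question was how these genes differed in neutrophils between genotypes and days after injury, and how much of their RNA was found in other cells. CD45-positive cells came from a magnetic bead selection on the tibialis anterior, a leg muscle, of male C57BL/6 mice of 8 to 12 weeks in which cardiotoxin had killed the muscle fibres, and their RNA was counted by droplet-based 3′ single-cell sequencing as UMIs (distinct RNA molecules). Both genotypes carried loxP sites around an exon of Bach1, the gene of a heme-binding transcriptional repressor. The control group was Bach1 fl/fl littermates and the KO group was Bach1 fl/fl Lyz2 Cre, in which the Lyz2 promoter drives Cre in neutrophils, monocytes and macrophages. There were 4 libraries, 1 for each of control dpi2, KO dpi2, control dpi4 and KO dpi4 (dpi, days post injury). With 1 library per group no test was run, and every interval is a 95% interval of counting error only.

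The libraries held from 4177 to 6602 cell barcodes and from 57010520 to 80228489 UMIs, and 5721, 3684, 4173 and 3433 cells were kept (control dpi2, KO dpi2, control dpi4, KO dpi4, the order used below). Any pair of libraries shared from 2 to 14 barcodes. Neutrophils were the cluster that detected 7 of 8 neutrophil markers (Cxcr2, Mmp9, Ly6g, Stfa2l1, Il1r2, Mmp8, Mxd1 and Trem1) and was high in S100a8 and Csf3r. The 10 genes were kept out of the genes that define clusters, and the high level of S100a8 and Csf3r in this cluster is part of its definition. The basophil marker Mcpt8 had 0 UMIs in these neutrophils and the mast cell marker Cpa3 had from 0 to 2 per library. Lyz2, whose promoter drives the Cre, stood at 1579, 49.4, 1584 and 60.5 CPM in them, that is, UMIs per 1000000 UMIs of the class. Bach1 stood at 197.2, 255.2, 135.3 and 141.2, and 3′ counts per gene cannot show the loss of the loxP-flanked exon. Hmox1, a known BACH1 target named here after its values were seen, was at 110.6, 5621, 111.0 and 3156 CPM.

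Neutrophils numbered 631, 825, 129 and 35 cells, which were 11% (10.2% to 11.9%), 22.4% (21.1% to 23.8%), 3.09% (2.59% to 3.66%) and 1.02% (0.711% to 1.42%) of kept cells. KO thus held the larger share at dpi2 and the smaller share at dpi4, by 11.4 percentage points (9.79 to 13) and by -2.07 points (-2.72 to -1.43). A neighbouring cluster led by Prok2, Pdcd1lg2, Il1f9 and Cxcr1 detected 5 of the neutrophil markers, yet it was shallow (median 3437 UMIs per cell) and had none of them among its leading genes, and it was left unnamed. It held 89, 486, 4 and 12 cells, so that most of it came from KO dpi2, and its values are given beside those of neutrophils where it matters. Neutrophils were shallow too, with median depths of 2308, 3422, 2820 and 2910 UMIs per cell, and summed to 1536636, 2977939, 369426 and 99161 UMIs. The values of KO dpi4 rest on 35 cells.

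The 10 genes lie on 6 chromosomes in the GRCm38 annotation. S100a8 (ENSMUSG00000056054, chr3:90668978-90670035, plus strand) and S100a9 (ENSMUSG00000056071, chr3:90692632-90695721, minus strand) are neighbours with 22596 bases between them. Camp (ENSMUSG00000038357, chr9:109847379-109849617, minus), Ngp (ENSMUSG00000032484, chr9:110419747-110423012, plus) and Ltf (ENSMUSG00000032496, chr9:111019271-111042767, plus) lie within 1195389 bases of chromosome 9. Lcn2 (ENSMUSG00000026822, chr2:32384633-32388252, minus) and Hdc (ENSMUSG00000027360, chr2:126593667-126619299, minus) share chromosome 2. Retnlg is ENSMUSG00000022651 (chr16:48872621-48874496, plus), G0s2 is ENSMUSG00000009633 (chr1:193272161-193273217, minus) and Csf3r is ENSMUSG00000028859 (chr4:126024550-126044440, plus).

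Promoter sequence is shown for Lcn2, G0s2 and Retnlg, which were at least 2-fold higher in KO neutrophils at dpi2 or dpi4, and for S100a9, which was higher at dpi2 by less than 2-fold, as the 250 bases before the start that RefSeq gives (GRCm38.p6), 5′ to 3′ on the gene's strand. These are chr16:48872358-48872607 for Retnlg, chr3:90695722-90695971 for S100a9 and chr1:193273189-193273438 for G0s2. Lcn2 is shown as 30 bases, chr2:32387937-32387966, since longer gene models start upstream. Capitals mark TTGCNNAA, the core of a C/EBP site, a family of factors that act in granulocyte maturation.
Retnlg: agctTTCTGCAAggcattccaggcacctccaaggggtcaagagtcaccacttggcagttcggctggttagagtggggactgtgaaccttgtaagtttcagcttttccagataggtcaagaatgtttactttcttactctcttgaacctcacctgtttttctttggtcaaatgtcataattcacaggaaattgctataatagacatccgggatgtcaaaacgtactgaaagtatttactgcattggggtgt
S100a9: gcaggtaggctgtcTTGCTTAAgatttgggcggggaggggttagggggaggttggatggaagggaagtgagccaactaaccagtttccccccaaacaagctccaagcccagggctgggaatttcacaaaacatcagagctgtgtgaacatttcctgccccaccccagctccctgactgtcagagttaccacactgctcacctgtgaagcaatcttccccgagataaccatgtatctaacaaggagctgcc
G0s2: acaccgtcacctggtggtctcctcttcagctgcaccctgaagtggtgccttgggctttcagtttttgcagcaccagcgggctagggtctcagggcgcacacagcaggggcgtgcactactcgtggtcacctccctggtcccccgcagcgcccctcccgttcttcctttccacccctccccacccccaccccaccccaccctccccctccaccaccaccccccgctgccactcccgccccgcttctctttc
Lcn2: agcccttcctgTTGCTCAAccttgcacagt
The motif stood 246 to 239 bases before the start of Retnlg on the opposite strand, 236 to 229 before S100a9 and 216 to 209 before Lcn2, and the window of G0s2 held none. On either strand it was found in 5 of the 10 genes (also Ngp, with 2, and Ltf) and in 3142 of all 32851 promoters (9.56%). TGAGTCA, an AP-1 and BACH type motif, was in 0 of the 10 and in 4.46% of all promoters. TGCTGAG, part of a Maf recognition element, was in 1 of the 10 (Csf3r) and in 6.21% of all promoters. None of these matches overlapped another, and a match is a description of letters only.

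Levels are sums over all cells of a class and library. A ratio was counted as past the size rule where it was at least 2-fold either way, its interval left out 1, and the pair of libraries held at least 50 UMIs. At dpi2, 8 of the 10 genes had 50 UMIs, and in KO over control Lcn2 and G0s2 passed as higher and Ltf as lower. Of all 5810 genes with 50 UMIs, 9.33% passed. At dpi4, 6 of the 10 had 50 UMIs, and Retnlg and G0s2 passed as higher and none as lower, while 6.22% of 1609 genes passed. The median log2 ratio of the scored genes was 0.49 at dpi2 and 0.23 at dpi4, beside -0.30 and -0.10 over all genes, and 7 of 8 and 6 of 6 stood above that median of all genes. With the Prok2-led cluster added the medians of the scored genes were 0.15 and -0.17, and with each library clustered by itself that at dpi4 was -0.19, so its direction depends on which cells are taken.

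These ratios are relative to all RNA of the class, and another scaling shifts every ratio of a pair of libraries alike. Of all genes past the rule at dpi2, 144 were higher and 398 lower by class totals, 290 and 163 with TMM factors, and 263 and 189 relative to the median gene. At dpi4 the splits were 33 and 67, 33 and 63, and 42 and 44. Under both other scalings Lcn2, G0s2 and Ltf kept their calls at dpi2 and Retnlg passed as higher too.

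**Figure D1:**
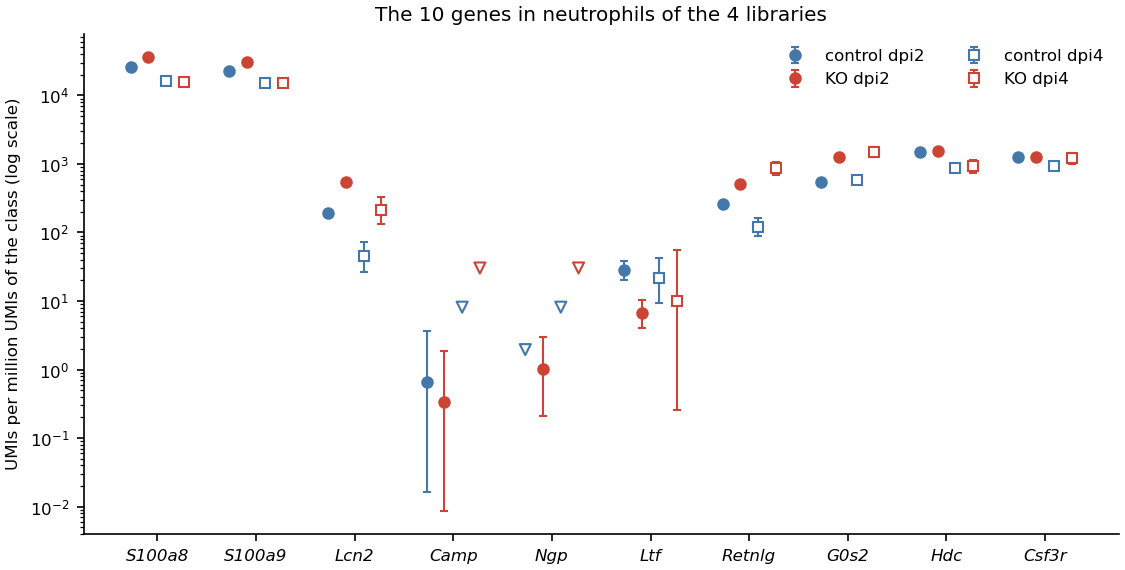
Levels of the 10 genes in neutrophils (CPM, log axis) in each of the 4 libraries, with 95% counting intervals, control in blue and KO in red, dpi2 filled and dpi4 open squares. Open triangles mark the level that 3 UMIs would give where a library had 0. S100a8 and S100a9 lie between 15288 and 36700, and Camp and Ngp at or near 0.

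The calprotectin subunits had the most UMIs of the 10 genes in the neutrophils of every library and moved together. S100a8 stood at 25566 (25313 to 25820), 36700 (36483 to 36918), 16225 (15817 to 16641) and 15530 (14764 to 16326) CPM, and S100a9 at 22518, 31076, 15362 and 15288. Both were highest in KO dpi2 and lower at dpi4 than at dpi2, and the genotypes differed beyond counting error at dpi2 and not at dpi4. The KO over control ratio at dpi2 was 1.44 (1.42 to 1.45) for S100a8 and 1.38 (1.36 to 1.40) for S100a9, under the 2-fold of the size rule. At dpi4 the ratios were 0.957 (0.904 to 1.01) and 0.995 (0.940 to 1.05), and without the highest cell of each library they were 0.876 (0.825 to 0.930) and 0.896 (0.843 to 0.953), below 1 beyond counting error. Counting intervals do not cover the spread between mice, which was not measured.

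With the Prok2-led cluster added to the neutrophils, an alternative chosen after seeing the data, the log2 ratio at dpi2 went from 0.52 to 0.19 for S100a8 and from 0.46 to 0.11 for S100a9. That cluster had 5430 and 8278 CPM of S100a8 at dpi2 in control and KO, and 2174 and 5307 of S100a9. Its calprotectin levels were thus below those of neutrophils in both genotypes, and it made up more of the KO library.

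**Figure D2:**
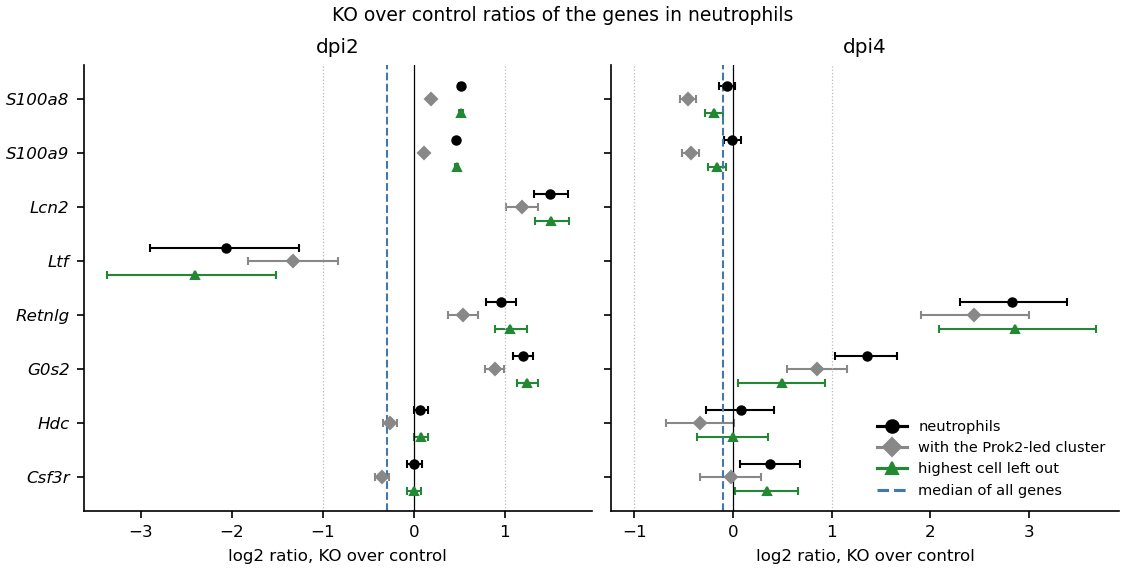
KO over control log2 ratio of each scored gene in neutrophils at dpi2 and dpi4, with 95% counting intervals, also with the Prok2-led cluster added and with the highest cell of each library left out. The dashed line is the median of all genes and the dotted lines mark 2-fold. At dpi2 Lcn2 lies at 1.5 and Ltf at -2.06, and at dpi4 G0s2 moves from 1.36 to 0.50 without the highest cells.

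Of Lcn2, Ltf, Camp and Ngp, the specific granule genes among the 10, Lcn2 (an antibacterial protein that binds iron-carrying siderophores) was the only one with more than 50 UMIs in the neutrophils of any library. It had 295, 1619, 17 and 21 UMIs, or 192.0 (170.7 to 215.2), 543.7 (517.5 to 570.8), 46.0 (26.8 to 73.7) and 211.8 (131.1 to 323.7) CPM. KO stood above control at both times. At dpi2 the ratio was 2.83 (2.50 to 3.22), and at dpi4 4.60 (2.31 to 9.29), where the pair held fewer than 50 UMIs and 47.6% of the KO UMIs lay in 1 cell. The share of neutrophils with an Lcn2 UMI, after thinning each cell to 1000 UMIs, was 12.5% (10.0% to 15.4%) in control dpi2 and 25% (22.1% to 28.1%) in KO dpi2, and 19.8% and 47.4% without thinning. T or NK cells, which should lack the gene, had 0 of 103 and 0 of 36 cells with a UMI at the same thinned depth, which allows shares of up to 2.91% and 8.33%.

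Ltf, which encodes the iron-binding lactoferrin, went the other way. It had 43, 20, 8 and 1 UMIs in neutrophils, or 28 (20.3 to 37.7), 6.72 (4.10 to 10.4), 21.7 (9.35 to 42.7) and 10.1 (0.255 to 56.2) CPM. The ratio at dpi2 was 0.240 (0.134 to 0.417), and that at dpi4 was 0.466 (0.0105 to 3.47), from 9 UMIs in all that cannot show a difference. In the Prok2-led cluster Ltf was higher than in neutrophils in both genotypes, at 96.6 (62.5 to 142.5) and 28.6 (21.4 to 37.4) CPM at dpi2, a KO over control ratio of 0.296. Summed over whole libraries the gene had 90, 90, 55 and 18 UMIs.

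Camp and Ngp, whose products fill the granules of maturing cells, were barely detected. Camp had 1, 1, 0 and 0 UMIs in neutrophils and Ngp 0, 3, 0 and 0, and whole libraries held at most 4 UMIs of either. The level that 3 UMIs would give, the upper limit that a count of 0 allows, was from 1.01 to 30.3 CPM in the neutrophils, so that the limit at KO dpi4 is the loosest. The primary granule genes Mpo, Elane, Prtn3 and Ctsg, which are expressed before the specific granule genes, had no member with 50 UMIs in any pair.

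Retnlg, which encodes a secreted resistin-like protein, had 397, 1492, 45 and 86 UMIs, or 258.4 (233.6 to 285.1), 501.0 (475.9 to 527.1), 121.8 (88.8 to 163.0) and 867.3 (693.7 to 1071) CPM. KO was above control at both times, at dpi2 by 1.94-fold (1.73 to 2.17) and at dpi4 by 7.12-fold (4.91 to 10.5). The Prok2-led cluster had 3.86 and 33.5 CPM in control and KO at dpi2. With that cluster added KO still stood above control at dpi2, by less. Few neutrophils carried Retnlg. The cells with a UMI numbered 93 of 631, 209 of 825, 6 of 129 and 6 of 35, and 1 cell held 51.1% of the UMIs in control dpi4 and 51.2% in KO dpi4. Without the highest cell of each library the ratio at dpi4 was 7.28, from 42 and 22 UMIs in KO and control. Such a ratio is one between 6 cells and 6 cells, and its counting interval does not cover the spread between cells.

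G0s2, which encodes an inhibitor of the triglyceride lipase ATGL, had 549.3 (512.8 to 587.6), 1260 (1220 to 1301), 587.4 (511.8 to 671.0) and 1503 (1271 to 1764) CPM, and the intervals of KO and control did not overlap at either time. At dpi2 the ratio was 2.29 (2.13 to 2.47) and at dpi4 2.56 (2.06 to 3.17). At dpi4, 1 KO cell held 88 of the 149 UMIs (59.1%), and without the highest cells the ratio was 1.41 and the call was lost. At dpi2 it was 2.37 without them. With the Prok2-led cluster added, the log2 ratio was 0.89 at dpi2 and 0.85 at dpi4, under 2-fold at both times.

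The dpi2 difference in G0s2 was also one in the share of cells. After thinning, 11.4% (8.99% to 14.1%) of control and 22.5% (19.6% to 25.5%) of KO neutrophils had a G0s2 UMI at dpi2, and 13.4% (8.00% to 20.6%) and 18.2% (6.98% to 35.5%) at dpi4. The shares of unthinned cells were 16.5%, 29.2%, 19.4% and 22.9%. In T or NK cells (median depths 3952 and 4736.5 UMIs at dpi2) the thinned shares at dpi2 were 0.971% and 2.78%, or 1 cell each. For Retnlg the thinned shares in neutrophils were 10.4%, 14.2%, 3.15% and 12.1%, the last 2 from 4 cells each.

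Hdc, which makes histamine from histidine, and Csf3r, the receptor through which G-CSF sustains neutrophils, differed little between the genotypes in the neutrophil cluster. Hdc stood at 1477 (1416 to 1539), 1552 (1508 to 1598), 877.0 (784.1 to 977.9) and 927.8 (747.9 to 1138) CPM. Csf3r stood at 1244 (1189 to 1301), 1249 (1209 to 1289), 931.2 (835.4 to 1035) and 1210 (1003 to 1447). For Hdc the KO over control ratio at dpi2 was 1.05 (1.0 to 1.11), and 1.06 (0.830 to 1.34) at dpi4. For Csf3r it was 1.0 (0.949 to 1.06) and 1.30 (1.05 to 1.60). These intervals exclude a 2-fold difference, although with TMM factors the log2 ratios at dpi2 were 0.44 and 0.37 rather than 0.07 and 0.00. In the Prok2-led cluster at dpi2, Hdc stood at 69.5 and 270.4 CPM and Csf3r at 309.0 and 262.8 in control and KO. With that cluster added both genes were lower in KO than in control at dpi2, by less than 2-fold.

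**Figure D3:**
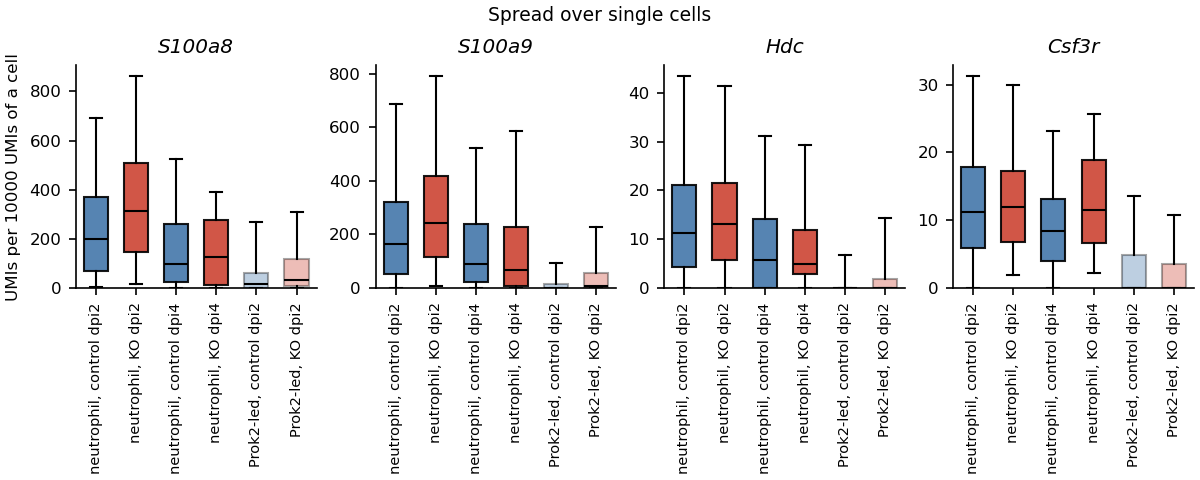
UMIs per 10000 UMIs of a cell for S100a8, S100a9, Hdc and Csf3r in neutrophils (dark) and in the Prok2-led cluster (pale) of each library. Boxes span the quartiles around the median and whiskers run from the 5th to the 95th percentile. S100a8 has medians of 200.3, 312.3, 95 and 126.4 in neutrophils and of 16.8 and 30.3 in the Prok2-led cluster at dpi2.

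Cell by cell the genes fell into widely shared and patchy ones. S100a8 was detected in 95.2%, 99.0%, 86.0% and 85.7% of neutrophils and Csf3r in 89.5%, 95.2%, 86.8% and 94.3%. Hdc was detected in 82.3%, 87.2%, 70.5% and 80.0%. After thinning to 1000 UMIs the shares were 93.6%, 96.7%, 82.7% and 78.8% for S100a8 and 68.4%, 69.3%, 55.1% and 57.6% for Csf3r, with 7, 1, 2 and 2 shallower cells left out. Of 103, 36, 80 and 132 T or NK cells at that depth, 0, 5, 0 and 0 had an S100a8 UMI and 0 in each library had one of Csf3r, where a count of 0 allows shares of up to 2.91%, 8.33%, 3.75% and 2.27%. The median neutrophil had 200.3, 312.3, 95 and 126.4 UMIs of S100a8 per 10000 UMIs and 163.8, 243.5, 88.9 and 64.8 of S100a9, so the higher dpi2 level in KO was seen in the middle of the distribution too. At dpi4 the S100a9 median was lower in KO than in control while the summed levels were close. Lcn2, Retnlg and G0s2 had a median of 0 in all 4 libraries.

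S100a8 and S100a9 followed each other across single neutrophils. Over cells thinned to 1000 UMIs, Spearman's rho between them was 0.81 (624 cells), 0.82 (824), 0.78 (127) and 0.87 (33). These cells share a library and a fixed depth, and the values are descriptions. Among the other pairs the coefficients ran from -0.16 to 0.29 and no relation is read from them. The highest of these was S100a9 with Lcn2 in KO dpi2, at 0.29. Of the 206 cells there with an Lcn2 UMI 204 also had an S100a9 UMI, near the share among all cells there, 786 of 824 (95.4%).

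The next comparison was between days. From dpi2 to dpi4, 2 of 8 scored genes passed the size rule as lower in control (Lcn2 and Retnlg) and 3 of 7 in KO (S100a8, S100a9 and Lcn2), and none passed as higher. Over all genes, 15.5% of 4356 and 17.4% of 4763 passed. The median log2 ratio of the scored genes was -0.60 in control and -0.74 in KO, beside 0.19 and 0.27 over all genes, and 0 of 8 and 1 of 7 (Retnlg) stood above the median of all genes. Without doublet removal the median in control was 0.05 and Retnlg no longer passed there, and in KO S100a8 and S100a9 no longer passed. Of all genes that passed, 376 were higher and 298 lower in control by class totals and 127 and 570 with TMM factors. In KO they were 629 and 199, and 124 and 790. Relative to the median gene they were 223 and 395 in control and 365 and 316 in KO.

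Calprotectin RNA was lower at dpi4 in both genotypes. The dpi4 over dpi2 ratio of S100a8 was 0.635 (0.618 to 0.652) in control and 0.423 (0.402 to 0.445) in KO, and that of S100a9 was 0.682 (0.663 to 0.702) and 0.492 (0.467 to 0.518). Lcn2 was lower as well, at 0.240 (0.138 to 0.390) in control and 0.390 (0.240 to 0.597) in KO, where the interval holds both calprotectin ratios. Hdc had ratios of 0.594 and 0.598. In control this depended on the removal of doublets. Without their removal the log2 ratio was -0.01 for S100a8 and 0.11 for S100a9 in place of -0.66 and -0.55, and it was -0.15 for Hdc in place of -0.75. In KO it was -0.91 and -0.69 for the calprotectin pair in place of -1.24 and -1.02.

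Csf3r had a ratio of 0.748 (0.665 to 0.840) in control and 0.969 (0.801 to 1.16) in KO. G0s2 had 1.07 and 1.19, and with TMM factors its log2 ratios were -0.30 and -0.50, so its direction over time depends on the scaling. Retnlg was lower at dpi4 in control, at 0.471 (0.338 to 0.643), and higher in KO, at 1.73 (1.38 to 2.15). In KO the ratio was 0.982 without the highest cell of each library and its log2 value was 0.04 with TMM factors, so that the higher level at dpi4 in KO was not seen without 1 cell or with that scaling. In control the log2 ratio was -0.14 in place of -1.08 without doublet removal.

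**Figure D4:**
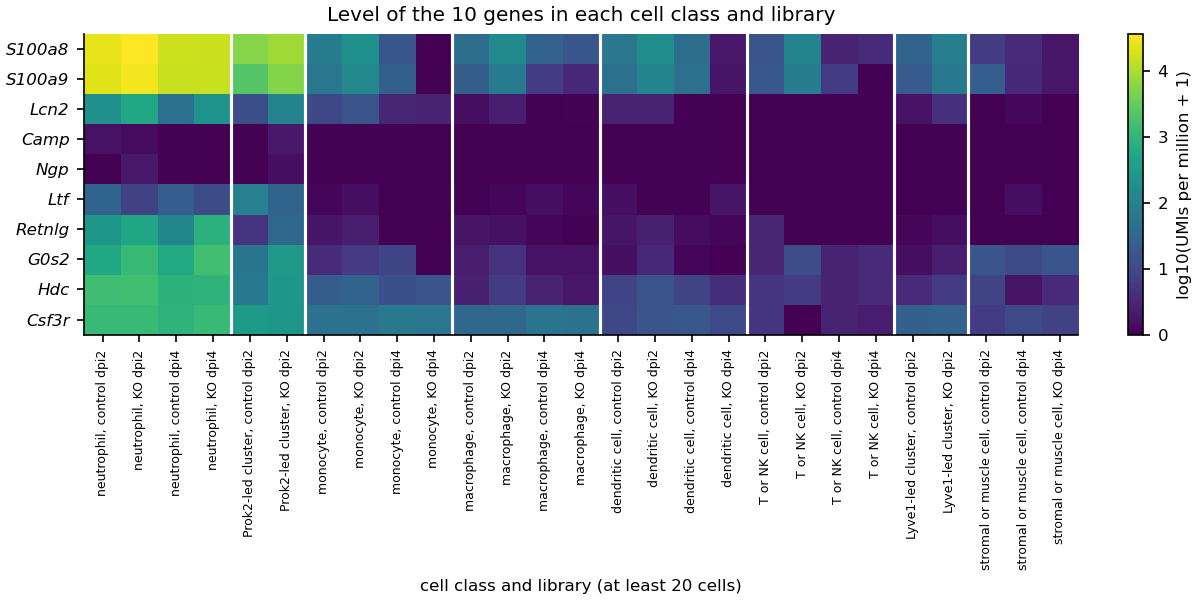
Heat map of log10(CPM + 1) of the 10 genes (rows) in every class of at least 20 cells in each library (columns). Neutrophils carry the highest value of S100a8, S100a9, Lcn2, Retnlg, G0s2, Hdc and Csf3r, followed by the Prok2-led cluster for most of them, and Csf3r also shows in monocytes and macrophages.

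Outside neutrophils and the Prok2-led cluster the levels were lower by a factor that differed by gene. S100a8 in neutrophils was 298.5, 185.2, 379.5 and 980.6 times its level in the next named class. For S100a9 the ratios were 374.2, 226.3, 326.6 and 7070. The next class at dpi4 was dendritic cells in control and macrophages in KO, and single cells weighed in both. Without its highest cell the dendritic level went from 42.8 to 21.3 CPM for S100a8 and from 47.0 to 29.8 for S100a9, and the macrophage level of S100a9 from 2.16 to 1.17. In control dpi4, macrophages without their highest cell had 24.3 (23.1 to 25.6) CPM of S100a8. The interval of dendritic cells was then 17.3 to 25.9, so which class came next is uncertain. Without the highest cells the S100a8 ratio in control dpi4 and both S100a9 ratios at dpi4 would be larger. Hdc stood 69.6, 57.3, 74.3 and 63.2 times above monocytes. Lcn2 stood 21.7 and 37.4 times above monocytes at dpi2. Csf3r stood 24.1 and 25.6 times above monocytes at dpi2 and 13.5 times in control dpi4. The order of the 3 myeloid classes for S100a8 in control dpi2 was monocytes at 85.6 CPM, dendritic cells at 62.8 and macrophages at 43.5. The place of dendritic cells rested on 1 of 315 cells, which held 64.1% of their S100a8 UMIs. Without the highest cell of each class the levels were 79.2, 22.6 (18.0 to 28) and 39.0 (36.7 to 41.4) CPM, so that dendritic cells came last. In KO dpi2 the intervals of monocytes at 198.2 (191.0 to 205.6) and dendritic cells at 187.3 (173.9 to 201.4) overlapped, and without the highest cells they stood at 177.7 (170.8 to 184.7) and 147.2 (135.3 to 159.9).

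At dpi2 the calprotectin level in the other classes compared was higher in KO in each of them. S100a8 in macrophages stood at 43.5 in control and 143.0 CPM in KO, a ratio of 3.29 (3.07 to 3.51). Monocytes had a ratio of 2.31 (2.19 to 2.45), dendritic cells 2.98 (2.57 to 3.47) and a Lyve1-led unnamed cluster 3.26 (2.84 to 3.76). Without the highest cell of each library, an alternative chosen after seeing the data, these ratios were 3.27 in macrophages, 2.24 in monocytes, 6.51 (5.17 to 8.28) in dendritic cells and 3.75 in the Lyve1-led cluster. T or NK cells, which should lack the gene, had 7 UMIs in 103 control cells and 21 in 36 KO cells. At the thinned depth 0 of 103 and 5 of 36 of them had an S100a8 UMI, the latter 13.9% (4.67% to 29.5%). Beside this, S100a8 was 642.1 and 2494 CPM of the whole library in control and KO at dpi2, and neutrophils held 87.8% and 82.7% of the S100a8 UMIs of kept cells. In whole-library sums, more cells and more RNA per cell cannot be told apart.

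These levels were uneven between cells. In control dpi2, 26 of 2538 monocytes held 69.1% of their S100a8 UMIs. In control dpi4, 1 of 366 dendritic cells held 50.5%. In KO dpi4 only 18 of 2676 macrophages had an S100a9 UMI, and 1 of these held 46.1% of the 102 UMIs. The part of doublets or free RNA in these values was not tested.

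**Figure D5:**
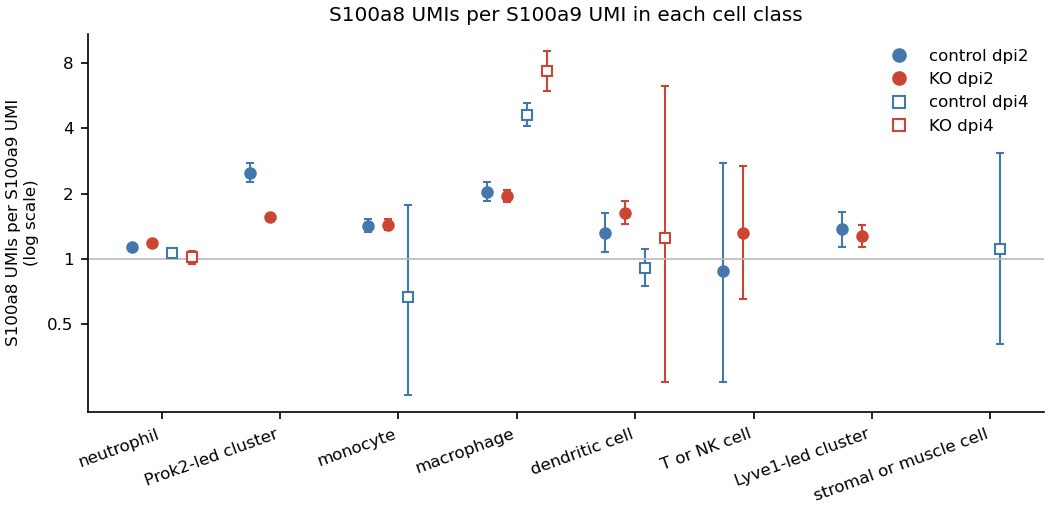
S100a8 UMIs per S100a9 UMI (log axis) in each class and library, with 95% counting intervals. Neutrophils lie between 1.02 and 1.18, the Prok2-led cluster at 1.56 and 2.50, and macrophages between 1.95 and 7.32.

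The balance of the calprotectin pair set macrophages apart from neutrophils. In neutrophils there were 1.14 (1.12 to 1.15), 1.18 (1.17 to 1.19), 1.06 (1.02 to 1.10) and 1.02 (0.946 to 1.09) S100a8 UMIs per S100a9 UMI, as 3′ counts that are not divided by length. Monocytes had 1.42 (1.33 to 1.52) and 1.44 (1.36 to 1.53) at dpi2, and the Prok2-led cluster had 2.50 (2.26 to 2.76) and 1.56 (1.52 to 1.60). Dendritic cells had 1.32 (1.08 to 1.62), 1.63 (1.45 to 1.84) and 0.909 (0.747 to 1.11) in the first 3 libraries, which overlapped neutrophils in both control libraries. Without the cells that held the most UMIs of either gene they had 2.00 (1.37 to 2.97) in control dpi2 and 0.712 (0.545 to 0.928) in control dpi4, above and below neutrophils, so the overlap rested on 1 cell in each. Macrophages had 2.04 (1.85 to 2.25), 1.95 (1.83 to 2.07), 4.62 (4.11 to 5.21) and 7.32 (5.95 to 9.10). Without such cells macrophages had 2.49, 2.14, 4.92 and 41.1 (25.1 to 72.3), the last from 657 and 16 UMIs with 2 cells left out, and neutrophils kept 1.14, 1.18, 1.07 and 1.05. The macrophage ratio was above that of neutrophils in every library, and more so at dpi4, where macrophages held 20.2% and 32.3% of the S100a8 UMIs of kept cells but 5.37% and 6.24% of the S100a9 UMIs.

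Csf3r had much of its RNA outside neutrophils. These held 41.5%, 62.9%, 8.72% and 4.63% of its UMIs in kept cells, and macrophages 20.3%, 12.1%, 87.2% and 91.6%. Its level in macrophages was 33.2 (31.1 to 35.4), 33.5 (31.0 to 36.0), 55.7 (53.9 to 57.6) and 50.4 (48.4 to 52.5) CPM, and in monocytes 51.7, 48.7, 68.9 and 60.6. T or NK cells had from 0 to 2 UMIs. In macrophages there were 1.31 and 4.27 S100a8 UMIs per Csf3r UMI at dpi2 and 0.463 and 0.314 at dpi4, against 20.5, 29.4, 17.4 and 12.8 in neutrophils.

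Lcn2 and Hdc were also seen in monocytes. In control dpi2 monocytes held 42.3% of the Lcn2 UMIs of kept cells and neutrophils 52.4%, and in KO dpi2 9.90% and 77.1%. The monocyte level in CPM was 8.85 (7.76 to 10.0) in control and 14.5 (12.6 to 16.6) in KO, so the smaller share of KO monocytes went with a higher level in them. Hdc in monocytes was 21.2 (19.5 to 23.0) and 27.1 (24.5 to 29.9) at dpi2 and made up 19.3% and 6.77% of its kept UMIs. Retnlg stayed in neutrophils, with 89.0%, 93.4%, 78.9% and 94.5% of its UMIs there, and G0s2 had 85.6%, 84.4%, 67.6% and 68.3%. At dpi4 stromal or muscle cells held 12.5% and 16.1% of the G0s2 UMIs.

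A gate on single barcodes gave another view of the same cells. Barcodes with at least 50 UMIs of S100a8 per 10000 UMIs and at least 1 UMI of Csf3r numbered 517, 890, 78 and 22. Of these, 450, 706, 75 and 18 were clustered neutrophils, which is 71.3%, 85.6%, 58.1% and 51.4% of that class. The gate uses S100a8 itself, so its share follows the level of that gene. It took 16, 108, 1 and 0 cells of the Prok2-led cluster and from 0 to 10 monocytes.

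Other neutrophil genes were read in the same cells from lists of related genes. These lists hold the 8 markers that named the neutrophil class, among them Mmp8, Stfa2l1 and Trem1. The lists are thus not independent of how the cells were chosen. Of all genes scored at dpi2, 9.33% passed, 144 as higher in KO and 398 as lower. Of 12 scored identity genes 6 were higher in KO at dpi2 and none lower, with a median log2 ratio of 1.05. They included Wfdc21 at 2.49-fold, a secreted protease-inhibitor-like protein, and the stefin genes Stfa1 at 13.2-fold (12 UMIs in control), Gm5483 at 3.42-fold and BC100530 at 16.7-fold (5.54 to 82.3, 3 UMIs in control). The stefin copies are near-identical, so reads may be split between them and their values are uncertain. Of 5 genes listed under the gelatinase granule, a grouping not measured here, 3 were higher and none lower, with a median of 1.58. These were the collagenase Mmp8 at 3.72-fold (3.04 to 4.59), the metal transporter Slc11a1 at 2.99-fold (2.44 to 3.69) and the sheddase Adam8 at 3.50-fold (2.90 to 4.27).

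In the remaining lists fewer genes passed as higher at dpi2. None of 4 scored genes listed as other specific granule genes passed (median 0.06), and none of 4 transcription factors did (median 0.03). Of 11 homing and chemotaxis genes 1 was higher, the leukotriene receptor Ltb4r1 at 3.23-fold (median 0.12), and 2 were with TMM factors. Of 7 survival and growth factor receptor genes 3 were lower (median -0.26), the anti-apoptotic copies Bcl2a1a, Bcl2a1b and Bcl2a1d, at 0.309, 0.455 and 0.395, between which reads may be split. With TMM factors and without doublet removal only Bcl2a1a passed (log2 ratios of -1.33 and -1.20), and with TMM factors the median of the list was 0.11. At dpi4, where 6.22% of all genes passed, Slpi, an inhibitor of neutrophil elastase, at 3.79-fold was the only gene of these lists past the rule, among 4 scored identity genes.

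Over time, members of 4 of these lists passed as lower at dpi4 in both genotypes and none of them as higher, while 15.5% of all genes passed in control and 17.4% in KO. In control 3 of 3 scored specific granule genes were lower (Pglyrp1 at 0.443, Hp at 0.475 and Chil3 at 0.238), as were 3 of 5 gelatinase granule genes, 5 of 11 homing genes and 7 of 9 identity genes (median -1.95). Without doublet removal these counts were 2 of 4, 3 of 5, 3 of 11 and 5 of 9 (median -1.08). In KO they were 2 of 4, 2 of 5, 6 of 11 and 8 of 12. The KO counts include Fpr1, a formyl peptide receptor, and Stfa1, which had 310 and 307 UMIs at dpi2 and 0 at dpi4. The KO median of the identity genes was -1.47, also with genes at 0 set to 3 UMIs. With TMM factors more members passed as lower in KO, at 3 of 4, 5 of 5, 10 of 11 and 10 of 12.

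Of 7 survival genes Bcl2a1a and Bcl2a1d were higher at dpi4 in KO, at 2.54-fold and 2.99-fold, and 0 of 6 passed in control, where Bcl2a1d was at 1.98-fold (1.65 to 2.37). Without doublet removal 1 of 7 passed as higher in control, and with the Prok2-led cluster added 1 of 7 passed as higher and 1 as lower. With TMM factors the log2 ratios of Bcl2a1a and Bcl2a1d in KO were 0.59 and 0.83 in place of 1.34 and 1.58, and neither passed. Csf2ra and Csf2rb, subunits of cytokine receptors, then passed as lower in KO at -1.16 and -1.39, and the median was -0.85 in place of -0.10. No transcription factor passed in either genotype by class totals, and 2 passed as lower in each with TMM factors.

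The genes most like the 10 in where they were expressed were found by correlation of log2(CPM + 1) with the mean of the 10 over 27 sums of a class in a library, among 14013 genes. Pearson's r was 0.976 for Wfdc21, 0.971 for the chemokine receptor Cxcr2, 0.969 for Stfa2l1 and 0.966 for Il23a. Lower in the order stood Nfkbia, 4732465J04Rik, Chac1, Chil1 and Hcar2 at 0.955 to 0.949. Of the 10 themselves Hdc had 0.969, S100a9 0.966 and Lcn2 0.962, while Csf3r had 0.874 and Ltf 0.857. Cxcr2 and Stfa2l1 are also markers that named the neutrophil class, so their high place follows in part from that naming. Each of the 10 is part of that mean, the sums share 4 libraries, and the coefficients are descriptions.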

How the data were processed

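CD45-positive cells were profiled in 4 libraries, 1 per group. The deposited matrices held raw UMI counts per gene and barcode for 27998 genes, which the authors made with Cell Ranger and, per the submitters' processing notes, version 6.1.2 and the mm10 genome, without normalization. No cell type annotation was used from the study. Of the 10 genes, none shares its ID with another row.

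Barcodes with at least 500 genes and a mitochondrial share under 10% were kept, and the highest Scrublet scores (0.8% per 1000 cells) were removed as doublets, from 100 to 289 per library. After scaling to 10000 UMIs per cell and a log transform, 30 principal components of 2000 variable genes (the 10 left out) and 15 nearest neighbours were used for Leiden clustering at resolution 1, which gave 25 clusters (scanpy 1.11.5, leidenalg 0.10.2). Classes were named from 64 markers, of which 63 were matched (Trac was not, nor was Cebpd of the gene lists). A cluster needed 3 markers in at least 10% of its cells, and stayed unnamed where another class had more markers among its 10 leading genes, or where it was shallow with no own marker among them.

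UMIs were summed per class and library. Levels carry exact Poisson, ratios exact conditional binomial and shares Clopper-Pearson intervals. Differences of shares carry intervals of the Newcombe form, built from Clopper-Pearson bounds. All are at 95% (scipy 1.17.1), for counting error alone. Where a count was 0, the limit is 3 counts. That is below the upper end of the Poisson interval (30.3 against 37.2 CPM in KO dpi4 neutrophils). Cells were thinned to 1000 UMIs for shares. The depth per library was from 57010520 to 80228489 UMIs. The size rule was tried on simulated Poisson counts, the model that its intervals assume. These counts held no spread between cells or mice, so the trial covers counting error only. TMM factors came from edgeR 4.0.16, which ran no test. The study's test over cells was not used, since cells are not replicates.

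Named genes were the 10 genes, the genes of 7 lists by counts with up to 4 per comparison by size, the 10 most alike in pattern (1 of them is not reported here), and the checks Lyz2, Bach1, Mki67 and Top2a. The markers Mcpt8 and Cpa3 and, after its values were seen, Hmox1 were named in addition. The genes, lists and markers were chosen with earlier results of these data known. Alternatives were other filters, no doublet removal, Leiden resolution 2, each library clustered by itself, the 10 genes kept among variable genes, a gate on single barcodes, other scalings, size rules and thinning depths. Adding the Prok2-led cluster, leaving out the highest cell or cells and all alternatives for the lists were chosen after seeing the data.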

Additional observations from a re-analysis of the deposited data

Results flagged for a closer look

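Each result here was marked because its effect went opposite ways in the 2 groups of a contrast. None of these differences was tested, since each group is 1 library.

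The neutrophil share of kept cells was higher in KO at dpi2, by 11.4 points, and lower at dpi4, by -2.07 points. With the Prok2-led cluster added the difference at dpi2 was 23.0 points.

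Retnlg in neutrophils had a dpi4 over dpi2 ratio of 0.471 in control and 1.73 in KO. In KO dpi4 6 cells carried it, and the KO ratio was 0.982 without the highest cell of each library. In control the log2 ratio was -0.14 without doublet removal, in place of -1.08.

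The calprotectin level outside neutrophils was higher in KO at dpi2 and lower at dpi4. In macrophages the KO over control ratio of S100a8 was 3.29 at dpi2 and 0.615 at dpi4, and that of S100a9 was 3.44 and 0.388, the last 0.248 (0.183 to 0.332) without the highest cell of each library. In dendritic cells S100a8 had 2.98 and 0.0244, the latter from 5 UMIs in KO against 200 in control, of which 50.5% lay in 1 cell. S100a9 had 2.41 and 0.0178 there, from 4 UMIs in KO at dpi4. Without the highest cell of each library these ratios in dendritic cells were 6.51 and 0.0394 for S100a8 and 6.83 and 0.0141 for S100a9. Hdc in macrophages had 3.32 and 0.497, from 46 and 116 UMIs in control and KO at dpi2 and 108 and 41 at dpi4. The whole-library level of S100a8 (642.1 and 2494 CPM at dpi2, 102.8 and 39.4 at dpi4 in control and KO) also stood higher in KO at the earlier day and lower at the later, and the part of free RNA in these values was not tested.

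Csf3r in dendritic cells had a KO over control ratio of 1.66 at dpi2 and 0.573 at dpi4, and a dpi4 over dpi2 ratio of 1.81 in control and 0.626 in KO, from 33, 57, 75 and 44 UMIs.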

How the results depend on the processing

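No paired analysis was possible because each group holds 1 library, and no replicate could be left out for the same reason. Of 311 log2 ratios of single genes under the alternatives, 192 stayed within their counting interval and on the same side of the size rule, 94 moved out of that interval, 12 lost the size rule, 13 came to pass it and none reversed a call. The KO minus control share of neutrophils, 11.4 points at dpi2, was 14.0 with the gate on single barcodes and 23.0 with the Prok2-led cluster, and at dpi4, -2.07 points, it was -1.26 with the gate.

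The median log2 ratio of the scored genes among the 10 at dpi2, 0.49 in KO over control, was 0.54 with at least 200 detected genes, 0.84 without doublet removal, 0.54 with the 10 genes kept among the clustering genes, 0.44 with the gate, 0.15 with the Prok2-led cluster, 0.86 with TMM factors and 0.80 relative to the median gene. At dpi4, 0.23, it turned to -0.19 with each library clustered by itself and to -0.17 with the Prok2-led cluster, and was 1.02 with the gate. Over time in control, -0.60, it turned to 0.05 without doublet removal, and was -0.43 with the Prok2-led cluster and -1.0 with TMM factors. Over time in KO, -0.74, it was -0.44 without doublet removal, -1.16 with separate clustering, -0.12 with the gate and -1.49 with TMM factors. The cause of these shifts was not tested.

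Genes past the size rule in KO over control, 542 at dpi2, were 1518 at 1.5-fold, 201 with at least 200 UMIs and 1163 with no minimum. At dpi4, 100, they were 204, 15 and 285 under the same rules, 196 with separate clustering and 182 with the Prok2-led cluster. Over time, 674 in control, they were 1305, 214 and 1415, and in KO, 828, they were 412 with at least 200 UMIs. With the Prok2-led cluster added, 3 genes of the other lists passed in KO over control at dpi4 in place of 1, and 1 of 3 specific granule genes in place of 3 was lower over time in control.

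The values of KO dpi4 are limited by 35 cells and 99161 UMIs, where a count of 0 allows up to 30.3 CPM.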

Other observations

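Among the cycling genes, Mki67 had 14, 11, 15 and 1 UMIs in the neutrophils of control dpi2, KO dpi2, control dpi4 and KO dpi4, or 9.11, 3.69, 40.6 and 10.1 CPM, and Top2a had from 1 to 8 UMIs. The Mki67 level in control dpi4 (22.7 to 67.0) lay above that in control dpi2 (4.98 to 15.3). Top2a did not follow, with 5 UMIs (3.25 CPM) in control dpi2 and 1 UMI (2.71 CPM) in control dpi4. Barcodes removed by the filters or as doublets held 12.1%, 7.11%, 4.51% and 6.16% of the S100a8 UMIs. Of the barcodes past the gate on S100a8 and Csf3r, 28, 36, 1 and 0 had been removed as doublets and 6, 25, 0 and 1 had fewer than 500 genes. At dpi4 most of the few Ltf UMIs lay in macrophages, 65.1% of 43 in control and 56.2% of 16 in KO.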
